A study of Mus musculus with 21 samples.

Results

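The 10 chemokine ligand genes described here, which brain macrophages transcribe, were followed through 21 RNA-seq libraries of cells sorted from mouse brain. The genes were Ccl2, Ccl3, Ccl4, Ccl6, Ccl7, Ccl8, Ccl9, Ccl12, Cxcl16 and Pf4, chosen by gene symbol, and all 10 of 10 were found among the 57180 genes of the table. All 10 also passed the filter on low counts, as did 18867 genes in all. The cells were monocyte-derived microglia that had been transplanted (MLC), transplanted microglia (MG) and the microglia of mice that received no transplant (NoTx). They were taken 5 days after a seizure caused by kainic acid, a glutamate receptor agonist (6 MLC, 4 MG and 3 NoTx libraries), or after saline (3 MLC, 3 MG and 2 NoTx libraries). MLC and MG carried the genotype Osb-GFP in both treatments. NoTx cells came from mice of the genotype CX3CR1-CreER+/-; CSF1R fl/fl, a Cre recombinase that is driven by the Cx3cr1 promoter and activated by tamoxifen, together with floxed Csf1r. In comparisons with NoTx the genotype therefore cannot be told apart from the transplantation. The labels give batch 1 for every seizure library and batch 2 for every saline library, so seizure cannot be told apart from batch either.

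Chemokines are small secreted proteins that draw leukocytes along a concentration gradient by binding receptors coupled to G proteins. The monocyte chemoattractant proteins Ccl2, Ccl7, Ccl8 and Ccl12 recruit monocytes and other leukocytes, Ccl2 and Ccl12 chiefly through the receptor Ccr2 and mouse Ccl8 through Ccr8. Ccl3 and Ccl4 are the macrophage inflammatory proteins, which attract monocytes and lymphocytes, and Ccl3 binds Ccr1. Ccl6 and Ccl9 are rodent ligands of Ccr1 that are made by myeloid cells at rest. Cxcl16 is anchored in the membrane and binds Cxcr6, and Pf4 (platelet factor 4, also called Cxcl4) is a heparin-binding chemokine of platelet granules that macrophages at the borders of the brain also transcribe.

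Estimated counts summed to between 6.57 M and 73.8 M (M, 1e6) per seizure library and between 36.5 M and 50.3 M per saline library. Levels are given as CPM, counts scaled to the size of the library, a unit that does not correct for gene length, so that it compares 1 gene between libraries and not genes with each other. In these sorted bulk samples, fewer cells of a kind and less RNA per cell cannot be told apart. Each sample is labelled a biological replicate of its group, and p-values measure the spread between these samples. Csf1r, the floxed gene of the NoTx genotype, averaged 3993 ± 3995 CPM in NoTx seizure libraries and 1835 ± 1542 CPM in NoTx saline libraries (SD, n = 3 and 2). Sall1, a transcription factor of resident microglia, averaged 4.71 ± 2.97 CPM in MLC, 243 ± 63.2 CPM in MG and 276 ± 28.8 CPM in NoTx after seizure (SD, n = 6, 4 and 3), and 1.49 ± 1.10 CPM in MLC after saline (SD, n = 3). P2ry12, a purine receptor of microglia, was read in all 21 libraries. It averaged 2162 CPM in MLC, 15223 CPM in MG and 17918 CPM in NoTx after seizure, and 2003 CPM in MLC, 13289 CPM in MG and 20041 CPM in NoTx after saline. P2ry12 and the microglial genes Sall1 and Siglech were called lower in MLC than in MG and NoTx in both treatments. Xist, the RNA of the inactive X chromosome, was above 50 CPM in 0 of 9 MLC, 7 of 7 MG and 2 of 5 NoTx libraries. Between MLC and MG the sex of the transplanted cells therefore cannot be told apart from the kind of cell. Xist in these cells does not give the sex of the mice that received them. MLC seizure replicates 3 and 6 carry the library code of replicates 2 and 4 of their group, and may not be separate animals. At equal depth, 3 libraries (MG seizure replicates 3 and 4 and MLC seizure replicate 5) stood apart with few genes, 8916 to 9677 at 10 or more counts against 10277 to 11947 in the others.

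In the RefSeq gene order of the mouse assembly GRCm38.p6, 8 of the 10 genes lie in 2 runs on chromosome 11. One run is Ccl2, Ccl7, Ccl11, Ccl12, Ccl8 and Ccl1, and the other is Ccl5, Ccl9, Ccl6, Ccl3 and Ccl4. Cxcl16 lies elsewhere on chromosome 11 between Med11 and Zmynd15, and Pf4 lies on chromosome 5 between Ppbp and Cxcl3. RefSeq promoters of this assembly were at hand for 6 of the 10 genes. The 250 bases before the start of 5 of them are printed 5′ to 3′ on the strand of the gene because these 5 were called between MLC and MG in both treatments, Ccl12, Ccl8 and Pf4 in 1 direction and Ccl9 and Ccl6 in the other. They lie at chr11:82101595-82101844 (Ccl12, plus strand), chr11:82114935-82115184 (Ccl8, plus strand), chr5:90772185-90772434 (Pf4, plus strand), chr11:83578637-83578886 (Ccl9, minus strand) and chr11:83593088-83593337 (Ccl6, minus strand). Capitals mark matches, on either strand, to the motifs searched.
Ccl12: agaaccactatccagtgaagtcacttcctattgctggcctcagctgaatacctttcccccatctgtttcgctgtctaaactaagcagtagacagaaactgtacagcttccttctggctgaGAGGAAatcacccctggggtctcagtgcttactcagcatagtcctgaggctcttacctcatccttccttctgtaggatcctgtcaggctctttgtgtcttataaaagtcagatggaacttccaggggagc
Ccl8: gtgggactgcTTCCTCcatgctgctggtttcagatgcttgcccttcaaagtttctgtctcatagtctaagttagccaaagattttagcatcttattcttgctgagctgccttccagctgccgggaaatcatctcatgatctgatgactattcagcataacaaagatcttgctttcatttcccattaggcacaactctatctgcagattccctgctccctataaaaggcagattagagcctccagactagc
Pf4: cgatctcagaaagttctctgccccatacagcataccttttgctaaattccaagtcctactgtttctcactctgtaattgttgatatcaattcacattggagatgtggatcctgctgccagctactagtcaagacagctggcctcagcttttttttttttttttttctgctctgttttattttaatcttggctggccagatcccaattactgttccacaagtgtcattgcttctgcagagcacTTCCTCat
Ccl9: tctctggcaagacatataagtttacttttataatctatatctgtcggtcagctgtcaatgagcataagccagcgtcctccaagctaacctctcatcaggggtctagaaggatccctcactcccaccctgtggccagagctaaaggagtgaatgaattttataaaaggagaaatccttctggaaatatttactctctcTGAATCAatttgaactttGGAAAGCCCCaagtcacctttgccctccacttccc
Ccl6: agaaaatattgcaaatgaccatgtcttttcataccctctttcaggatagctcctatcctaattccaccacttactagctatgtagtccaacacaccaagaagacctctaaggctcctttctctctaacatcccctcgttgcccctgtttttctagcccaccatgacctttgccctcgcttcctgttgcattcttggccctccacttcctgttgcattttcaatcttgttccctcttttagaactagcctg
The motifs were the core of the myeloid factor PU.1 (GAGGAA), the AP-1 element TGANTCA, an interferon element GAAANNGAAA and the NF-kB element. The AP-1 match reads on both strands at the same bases, and no other matches overlapped. The PU.1 core occurred in 4 of the 6 promoters (Ccl8, Ccl12, Ccl3 and Pf4) and in 23.3% of 32851 mouse promoter windows of 250 bases. The AP-1 and NF-kB elements were each found in the Ccl9 window alone among the 6, and in 6.75% and 7.25% of all windows. The interferon element was in 0 of the 6 windows and in 2.98% of all windows. These matches describe letters and not sites of binding.

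MLC and MG differed in most of the 10 ligands, some of them higher in MLC and others lower. After seizure Ccl7, Ccl8, Ccl12, Cxcl16 and Pf4 were higher in MLC than in MG, and Ccl4, Ccl6 and Ccl9 were lower. After saline the same comparison called Ccl7, Ccl8, Ccl12, Cxcl16 and Pf4 higher and Ccl6 and Ccl9 lower. A call is a Benjamini-Hochberg adjusted p under 0.05 in an edgeR quasi-likelihood fit of all 21 libraries, adjusted over all 18867 genes. After seizure 5 of 10 ligands were called higher and 3 lower, against 2.51% and 3.37% of all genes tested (474 and 635 genes, and 545 and 477 with RLE scaling). After saline 5 of 10 were called higher and 2 lower, against 0.779% and 0.806% of all genes tested. The libraries of MLC and MG did not overlap for 5 ligands higher and 3 lower after seizure (2.44% and 2.96% of all genes), and for 6 higher and 3 lower after saline (10.4% and 12.4%). The median log2 fold change of the 10 was 2.06 after seizure and 2.74 after saline, and that of all genes was 0 in both. The ligands were chosen with earlier results of these data known. The shares and medians therefore describe the ligands and do not test them as a set.

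**Figure D1:**
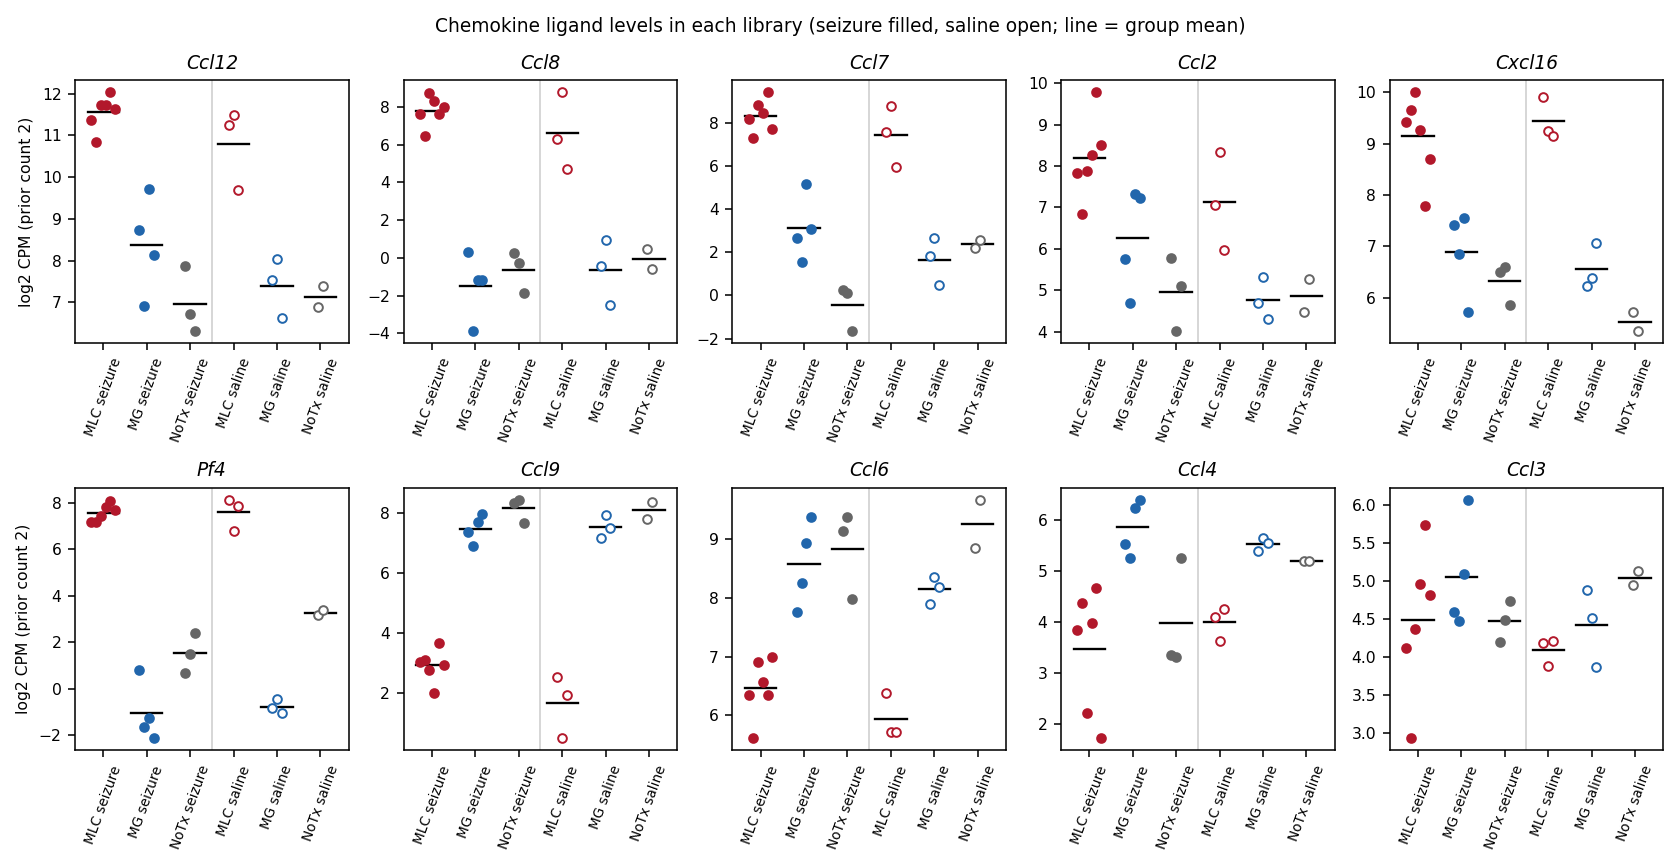
Level of each of the 10 chemokine ligands in each of the 21 libraries, as log2 CPM with a prior count of 2, with a point per library (seizure filled, saline open) and a line at the mean of the group. Ccl7, Ccl8, Cxcl16 and Pf4 lie higher in all 9 MLC libraries than in any MG or NoTx library, Ccl6 and Ccl9 lie lower, and Ccl3 overlaps between MLC and MG in both treatments.

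Of the monocyte chemoattractant proteins, 3 of 4 were called higher in MLC than in MG in both treatments. Ccl12, which in mice shares the receptor Ccr2 with Ccl2, ranged from 1822 to 4189 CPM (median 3274) in the 6 MLC seizure libraries, against 426, 120, 842 and 281 CPM in MG and 236, 105 and 79.9 CPM in NoTx. After saline it read 2447, 2849 and 820 CPM in MLC, 185, 262 and 99.2 CPM in MG, and 118 and 168 CPM in NoTx. Within each treatment every MLC library lay above every MG and NoTx library. Ccl12 averaged 3098 ± 801 CPM in MLC and 417 ± 310 CPM in MG after seizure (SD, n = 6 and 4), a log2 fold change of 2.89 (SE 0.49, edgeR adjusted p = 0.000508). After saline the log2 fold change of MLC over MG was 3.48 (SE 0.60, adjusted p = 0.00139). Without MG seizure replicate 3, 1 of the 3 libraries with few genes, the seizure value was 3.49.

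Ccl8, a ligand of Ccr8 in mice, was close to the limit of counting outside MLC. It ranged from 88.6 to 428 CPM (median 225) in MLC seizure libraries, against 1.18, 0, 0.371 and 0.381 CPM in MG and 1.11, 0.760 and 0.202 CPM in NoTx. The library at 0, MG seizure replicate 2, allows up to 0.374 CPM (3 counts, counting error only). After saline Ccl8 read 78.3, 437 and 25.9 CPM in MLC, 0.675, 1.85 and 0.111 CPM in MG, and 1.30 and 0.601 CPM in NoTx. The lowest MLC library, saline replicate 3, lay above the highest MG library, saline replicate 2. The log2 fold change of MLC over MG was 9.02 after seizure (SE 1.06, adjusted p = 5.39e-06) and 7.67 after saline (SE 1.15, adjusted p = 0.000275). The MG sums behind these values were 38 counts over 4 seizure libraries and 114 counts over 3 saline libraries. The saline value was 5.90 without MLC saline replicate 2 and 8.81 without MG saline replicate 2, and the seizure value was 9.66 without MG seizure replicate 1.

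Ccl7, which binds Ccr1, Ccr2 and Ccr3, showed the same division between MLC and the other cells. Its levels were 157 to 693 CPM (median 326) in MLC seizure libraries, 6.29, 2.87, 35.8 and 8.51 CPM in MG and 1.11, 1.00 and 0.252 CPM in NoTx. After saline the levels were 195, 442 and 61.7 CPM in MLC, 3.52, 6.23 and 1.33 CPM in MG, and 4.61 and 5.84 CPM in NoTx. The lowest MLC library lay above the highest MG library, MG seizure replicate 3. Between MLC and MG the log2 fold change was 4.75 after seizure (SE 0.75, adjusted p = 0.000231) and 5.98 after saline (SE 0.94, adjusted p = 0.000489). Without MG seizure replicate 3 the seizure value was 5.93, and the saline value was 5.14 without MLC saline replicate 2 and 6.59 without MG saline replicate 2.

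Ccl2, the ligand for which the monocyte chemoattractant proteins are named, did not pass the test between MLC and MG in either treatment. It ranged from 115 to 882 CPM (median 272) in MLC seizure libraries, against 54.2, 25.9, 161 and 150 CPM in MG and 54.6, 16.1 and 34.3 CPM in NoTx. After saline it read 133, 326 and 62.7 CPM in MLC, 25.9, 40.0 and 19.7 CPM in MG, and 22.0 and 38.5 CPM in NoTx. MLC and MG overlapped after seizure through MG seizure replicates 3 and 4, both among the libraries with few genes, and did not overlap after saline. The log2 fold change of MLC over MG was 1.86 after seizure (SE 0.58, adjusted p = 0.0615) and 2.61 after saline (SE 0.73, adjusted p = 0.0826). Without the 3 libraries with few genes the values were 2.77 (adjusted p = 0.023) and 2.62 (adjusted p = 0.0145). DESeq2 gave 2.14 (adjusted p = 0.00513) and 2.64 (adjusted p = 0.0195). With the library code as a block both were called, at 2.06 after seizure (adjusted p = 0.00166) and 2.36 after saline (adjusted p = 0.00632). The seizure value was 1.45 without MLC seizure replicate 5, the library highest in Ccl2 (adjusted p = 0.116). Without MLC saline replicate 2, the saline value was 1.81 (adjusted p = 0.572).

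The 4 genes of this chromosomal run ordered the MLC saline libraries alike. Replicate 2 was the highest and replicate 3 the lowest of the 3 for Ccl2, Ccl7, Ccl8 and Ccl12 alike. The order was not particular to this run. The summed level of 26 other chemokine ligands was 203, 641 and 107 CPM in MLC saline replicates 1, 2 and 3. The sum of 7 microglial markers had the reverse order in these libraries. The neighbours Ccl11, an attractant of eosinophils, and Ccl1 had 0 counts in all 21 libraries, of 627 M counts in all, which allows up to 0.00478 CPM each (3 counts over all libraries, counting error only). Markers of blood monocytes, of which none of 7 was called between MLC and MG, summed to 1.59 to 8.90 CPM in MLC and 0.769 to 54.4 CPM in MG after seizure, and to 2.91 to 7.36 CPM in MLC and 7.69 to 19.8 CPM in MG after saline.

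Cxcl16, the membrane-bound ligand that also takes up oxidised lipids, was higher in MLC in both treatments. It ranged from 222 to 1028 CPM (median 650) in MLC seizure libraries, against 170, 115, 188 and 52.5 CPM in MG and 90.4, 97.4 and 58.1 CPM in NoTx. The saline libraries held 961, 608 and 571 CPM in MLC, 75.4, 84.1 and 133 CPM in MG, and 52.6 and 41.0 CPM in NoTx. The lowest MLC library, seizure replicate 5, was 1 of the 3 with few genes and still lay above all MG and NoTx libraries. Between MLC and MG the log2 fold change was 2.26 after seizure (SE 0.40, adjusted p = 0.000784) and 2.87 after saline (SE 0.49, adjusted p = 0.00132). Of the 3021 exon bases of Cxcl16 in GENCODE M21, 552 (18.3%) overlap Zmynd15 on the opposite strand, and no source used here states whether the counting used the strand.

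Pf4 was read at a high level in MLC and at a few counts in MG. Its levels were 143 to 268 CPM (median 190) in MLC seizure libraries, 1.67, 0.249, 0.345 and 0.159 CPM in MG and 1.52, 2.76 and 5.15 CPM in NoTx. After saline it read 283, 111 and 232 CPM in MLC, 0.489, 0.661 and 0.416 CPM in MG, and 8.93 and 10.3 CPM in NoTx. The groups fell into 3 levels, with MLC highest, NoTx between and MG lowest, and only MG seizure replicate 1 reached into the NoTx range. Pf4 averaged 194 ± 49.2 CPM in MLC and 0.606 ± 0.713 CPM in MG after seizure (SD, n = 6 and 4), a 350-fold difference (log2 8.45, SE 0.67, adjusted p = 1.38e-08). After saline the difference was 395-fold (log2 8.63, SE 0.77, adjusted p = 2.82e-07). The MG sums were 37 counts after seizure and 65 after saline, and the seizure value was log2 9.56 without MG seizure replicate 1 and 7.61 without the 3 libraries with few genes.

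Markers of 2 kinds of cells known to transcribe Pf4 were read beside it. Of 10 markers of platelets and megakaryocytes, 7 were at 0 in all MLC seizure libraries, among them Ppbp, the neighbour of Pf4 that encodes another platelet chemokine, and the summed level of the list was 0 to 1.12 CPM there. The sum was 7.17 to 34.1 CPM in MG and 4.98 to 27.3 CPM in NoTx seizure libraries. After saline it was 2.58 to 5.69 CPM in MLC, 19.4 to 37.7 CPM in MG and 10.9 to 14.6 CPM in NoTx. Within each treatment the platelet sum was lowest in MLC. After saline this order rested on Gp9, which averaged 26.2 CPM in MG, 10.3 CPM in NoTx and 0.0893 CPM in MLC. Other members of the list did not share that order. Treml1 averaged 0.987 CPM in MLC, 1.34 CPM in MG and 0.389 CPM in NoTx after saline, and Ppbp averaged 1.11 CPM in MLC and 0 CPM in MG and NoTx. Of the 5 tested members of the list 0 were called higher in MLC than in MG. Gp9 (both treatments) and Gp1ba (after seizure) were called lower. The part of platelets in the Pf4 result was not tested. Ppbp itself had 154 counts in all, in 2 MLC saline libraries.

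Of 8 markers of border macrophages, Mrc1, the mannose receptor, was called higher in MLC than in MG in both treatments, and Cd163 and F13a1 were called higher after seizure. The summed level of the list was 647 to 1162 CPM in MLC, 2.54 to 50.2 CPM in MG and 2.63 to 39.8 CPM in NoTx after seizure. After saline it was 819 to 1336 CPM in MLC, 10.4 to 30.6 CPM in MG and 163 to 230 CPM in NoTx. The sum had the order of Pf4 after saline, and MG and NoTx overlapped after seizure. The members did not all share that order. After saline Mrc1, Cd163, Cbr2 and Folr2 averaged higher in MLC than in NoTx. F13a1 (12.4 and 129 CPM), Cd209f (0.0665 and 5.76 CPM), Lyve1 (0.00724 and 2.10 CPM) and Clec10a (2.37 and 5.54 CPM) averaged lower. In that comparison only Mrc1 was called, and the median log2 fold change of the list was −0.55. Mrc1 made up most of it in MLC, at 842 ± 180 CPM after seizure and 979 ± 278 CPM after saline (SD, n = 6 and 3). Lyve1, a defining marker, was at 0 in all 6 MLC seizure libraries, and in MG seizure libraries Cd163 and Clec10a were at 0. These sums stand beside every ligand that differed between MLC and the other cells, and the part of border macrophages in the Pf4 result and the others was not tested.

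**Figure D2:**
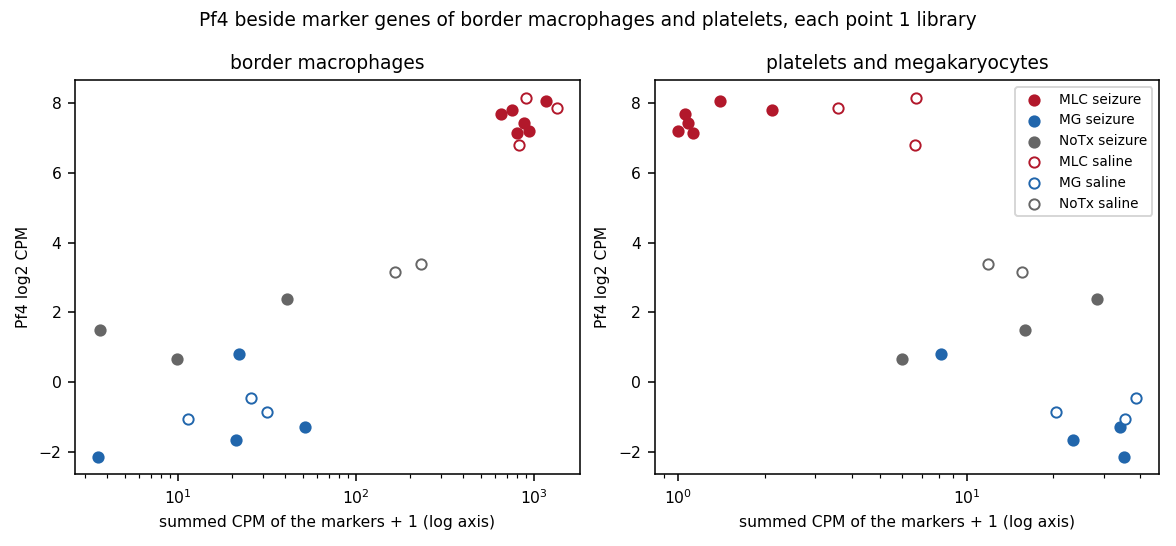
Pf4 (vertical axis, log2 CPM) against the summed CPM plus 1 of border macrophage markers (left) and platelet markers (right) on log axes, with a point per library. MLC libraries combine 111 to 283 CPM of Pf4 with platelet sums of at most 5.69 CPM and with border macrophage sums of 647 CPM or more.

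Ccl9 and Ccl6, the Ccr1 ligands, ran in the other direction. Ccl9 ranged from 3.97 to 12.7 CPM (median 7.93) in MLC seizure libraries, against 165, 118, 206 and 247 CPM in MG and 323, 347 and 203 CPM in NoTx. In the saline groups it read 5.76, 1.35 and 3.81 CPM in MLC, 142, 243 and 180 CPM in MG, and 221 and 330 CPM in NoTx. The highest MLC library stayed well under the lowest of the other libraries. Ccl9 averaged 7.96 ± 2.85 CPM in MLC and 184 ± 55.4 CPM in MG after seizure (SD, n = 6 and 4), a log2 fold change of −4.54 (SE 0.37, adjusted p = 2.27e-08). After saline the averages were 3.64 ± 2.21 CPM in MLC and 188 ± 51.4 CPM in MG (SD, n = 3 each), a log2 fold change of −5.69 (SE 0.54, adjusted p = 4.7e-07).

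Ccl6, the next gene on the chromosome, was lower in MLC as well. It ranged from 48.8 to 128 CPM (median 88.1) in MLC seizure libraries, against 216, 304, 493 and 668 CPM in MG and 564, 665 and 253 CPM in NoTx. After saline it read 83.6, 52.6 and 52.3 CPM in MLC, 239, 327 and 293 CPM in MG, and 463 and 819 CPM in NoTx. No MLC library reached any MG or NoTx library. The log2 fold change of MLC over MG was −2.18 after seizure (SE 0.33, adjusted p = 0.000144) and −2.19 after saline (SE 0.44, adjusted p = 0.0062). The seizure call was lost without the 3 libraries with few genes (log2 −1.33, adjusted p = 0.051), and the saline call without MLC saline replicate 2 (adjusted p = 0.0561).

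Ccl4 and Ccl3, the macrophage inflammatory proteins further along the same run, were called in 1 comparison and in 0. Ccl4 ranged from 3.24 to 25.2 CPM (median 15.0) in MLC seizure libraries, against 46.0, 37.9, 74.5 and 83.8 CPM in MG and 10.2, 9.83 and 38.1 CPM in NoTx. The saline levels were 17.0, 12.3 and 19.0 CPM in MLC, 41.7, 49.8 and 46.5 CPM in MG, and 36.4 CPM in both NoTx libraries. MLC lay under MG without overlap in both treatments. Between MLC and MG the log2 fold change was −2.13 after seizure (SE 0.51, adjusted p = 0.0138), a call that was lost without the 3 libraries with few genes (adjusted p = 0.137) and in a fit of only the groups compared (adjusted p = 0.0781). After saline it was −1.51 (SE 0.67, adjusted p = 0.525), and limma-voom gave an adjusted p of 0.00841.

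Ccl3 was called in 0 of 10 comparisons. It ranged from 7.54 to 53.6 CPM (median 24.3) in MLC seizure libraries, against 24.1, 22.2, 34.1 and 67.4 CPM in MG and 18.2, 22.4 and 26.6 CPM in NoTx. After saline it read 18.2, 14.7 and 18.5 CPM in MLC, 29.4, 22.9 and 14.6 CPM in MG, and 30.7 and 35.1 CPM in NoTx. After saline both NoTx libraries lay above all MLC and MG libraries, MLC and MG overlapped in both treatments, and after seizure all 3 kinds of cell overlapped. The log2 fold change of MLC over MG was −0.49 after seizure (adjusted p = 0.578) and −0.38 after saline (adjusted p = 1), with 95% intervals from −1.45 to 0.48 and from −1.61 to 0.85. Counting a value within 0.01 of a whole number as whole, Ccl3 held fractional counts in 20 of 21 libraries and Cxcl16 in 19 of 21, and no source used here states how the fractions arose.

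**Figure D3:**
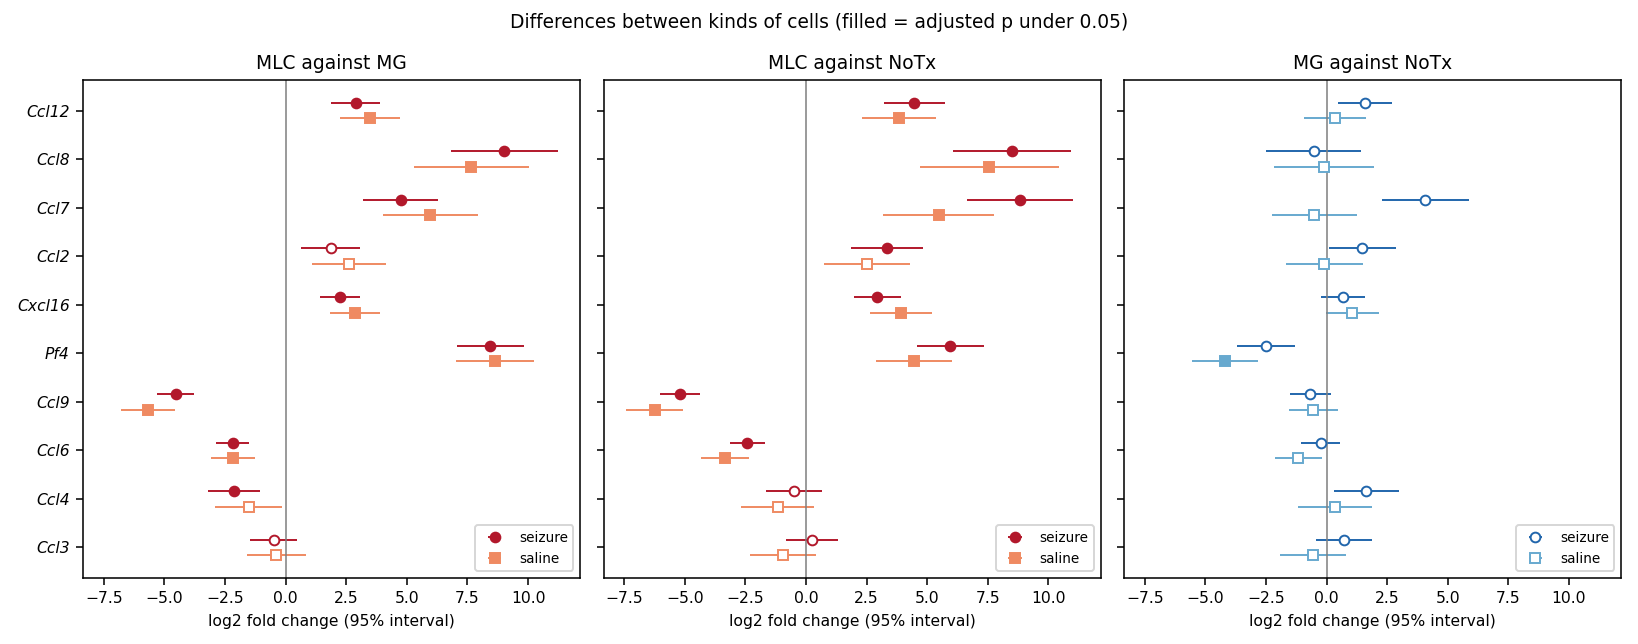
Log2 fold change of each ligand in MLC against MG, MLC against NoTx and MG against NoTx, after seizure and after saline, with 95% intervals of the edgeR fit (circles seizure, squares saline, filled for adjusted p under 0.05). Ccl7, Ccl8, Ccl12, Cxcl16 and Pf4 lie to the right and Ccl6 and Ccl9 to the left of 0 in all 4 comparisons of MLC, and in MG against NoTx only Pf4 after saline is called.

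Set against the microglia of mice without a transplant, MLC were again higher in some ligands and lower in others. After seizure MLC were higher in Ccl2, Ccl7, Ccl8, Ccl12, Cxcl16 and Pf4 and lower in Ccl6 and Ccl9, 6 and 2 of 10 ligands beside 2.55% and 3.61% of all genes. After saline Ccl7, Ccl8, Ccl12, Cxcl16 and Pf4 were higher and Ccl6 and Ccl9 lower, 5 and 2 of 10 beside 0.445% and 0.811%. The comparisons with MG and with NoTx share the MLC libraries. Ccl2 was called in the seizure comparison with NoTx and in no other, with a log2 fold change of MLC over NoTx of 3.35 after seizure (SE 0.71, adjusted p = 0.00528) and of 2.52 after saline (SE 0.85, adjusted p = 0.251). The saline difference was called with the library code as a block (log2 2.69, adjusted p = 0.0139) and in limma-voom (log2 2.30, adjusted p = 0.0276). The log2 fold change of Ccl7 was 8.83 after seizure (SE 1.06, adjusted p = 8.72e-06) and 5.48 after saline (SE 1.10, adjusted p = 0.00902). For Pf4 it was 5.94 after seizure (SE 0.66, adjusted p = 3.27e-06) and 4.44 after saline (SE 0.76, adjusted p = 0.00186).

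Markers of other blood cells also differed between MLC and NoTx. Those of blood monocytes summed to 1.59 to 8.90 CPM in MLC and 6.05 to 123 CPM in NoTx after seizure, and to 2.91 to 7.36 CPM in MLC and 148 to 1039 CPM in NoTx after saline. Neutrophil markers summed to 3.48 to 15.8 CPM in MLC and 6.22 to 649 CPM in NoTx after seizure, and to 2.49 to 4.39 CPM in MLC and 67.2 to 1617 CPM in NoTx after saline. The monocyte markers Plac8 and Chil3 (2 of 7) and the neutrophil markers S100a8, S100a9, Camp and Ngp (4 of 6 tested) were called lower in MLC in both treatments. After seizure the neutrophil sums of NoTx were 6.22, 12.6 and 649 CPM, so that the difference rested mostly on NoTx seizure replicate 3. Chil3 likewise had a median of 0.729 CPM and a highest value of 96.5 CPM in NoTx after seizure. The part of such cells in the ligand differences was not tested.

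Among the other ligands called, the log2 fold changes of MLC over NoTx after seizure were 8.49 for Ccl8, 4.47 for Ccl12 and 2.94 for Cxcl16, and −5.20 for Ccl9 and −2.42 for Ccl6. After saline they were 7.56 for Ccl8, 3.83 for Ccl12 and 3.93 for Cxcl16, and −6.24 for Ccl9 and −3.35 for Ccl6. NoTx after saline had only 2 libraries, and leaving out either of them ended the calls of Ccl7, Ccl8, Ccl12 and Pf4, with adjusted p between 0.0722 and 0.193. Cxcl16 lost its call without NoTx saline replicate 2 (adjusted p = 0.0526). Ccl6 and Ccl9 kept theirs without either library. After seizure the call of Ccl8 was lost in limma-voom (adjusted p = 0.0594). Without MLC saline replicate 2 the saline values were 4.64 for Ccl7 and 5.80 for Ccl8, and Ccl8 was 8.22 without NoTx saline replicate 1. The seizure value of Ccl12 was 5.07 without NoTx seizure replicate 1.

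Between transplanted microglia and microglia of mice without a transplant, 1 ligand was called. After saline Pf4 averaged 0.522 ± 0.126 CPM in MG and 9.62 ± 0.983 CPM in NoTx (SD, n = 3 and 2), a log2 fold change of −4.19 (SE 0.67, adjusted p = 0.0113), beside 0.0477% of all genes called lower. This call was lost without any 1 of the 3 MG saline libraries (adjusted p 0.0989 to 0.165), without NoTx saline replicate 2 (adjusted p = 0.118), in a fit of only the groups compared (adjusted p = 0.0678) and with the library code block (adjusted p = 0.079). In these settings the log2 fold change lay between −4.39 and −4.05. In the same libraries the markers of blood monocytes summed to 7.69 to 19.8 CPM in MG and 148 to 1039 CPM in NoTx, and those of neutrophils to 2.44 to 8.24 CPM in MG and 67.2 to 1617 CPM in NoTx. F13a1 made up most of the border macrophage sum of NoTx saline cells, at 129 ± 60.7 CPM (SD, n = 2). The part of such cells in the Pf4 difference was not tested.

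After seizure 0 of 10 ligands were called between MG and NoTx by edgeR, beside 0.0742% of all genes called. An unadjusted p under 0.05 was read for 5 of the 10, and the share of all genes under that limit is not given. DESeq2 called 2 (Ccl7 and Pf4) among 670 genes called in all, and limma-voom 0 among 24, where edgeR called 14 genes. Ccl7 had a log2 fold change of 4.08 (SE 0.87, adjusted p = 0.0867), and its libraries did not overlap (1.76% of all genes were higher without overlap), at 2.87 to 35.8 CPM in MG and 0.252 to 1.11 CPM in NoTx. Pf4 had −2.51 (SE 0.58, adjusted p = 0.133). Ccl7 passed without MG seizure replicate 2 (log2 4.41, adjusted p = 0.0332) and Pf4 without MG seizure replicate 1 (log2 −3.61, adjusted p = 0.00599). Ccl12 (log2 1.57), Ccl2 (log2 1.48) and Ccl4 (log2 1.65) had adjusted p between 0.365 and 0.42.

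Seizure against saline called none of the ligands in any kind of cell. In MLC 0 of 10 passed, beside 0% of all genes, and only Ccl9 had an unadjusted p under 0.05 (log2 fold change 1.12, adjusted p = 0.338). In MG 0 of 10 passed, beside 0.0371% of all genes, and 3 had an unadjusted p under 0.05. In NoTx 0 of 10 passed, beside 0.106% of all genes, and 2 had an unadjusted p under 0.05. The percentages are shares of adjusted calls, and the share of all genes with an unadjusted p under 0.05 is not given. DESeq2 and limma-voom called 0 of 10 in each. An adjusted p above the threshold does not show equal levels, and the intervals stand in the plot of seizure against saline.

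The 3 MG values were log2 1.78 for Ccl2, 1.87 for Ccl7 and 1.19 for Ccl12, with adjusted p from 0.397 to 0.403. Their libraries overlapped between seizure and saline, and MG seizure replicate 3 was the highest for Ccl2, Ccl7 and Ccl12. In NoTx Ccl7 averaged 0.787 CPM after seizure (0.252 to 1.11 CPM, n = 3) and 5.22 CPM after saline (4.61 and 5.84 CPM), a log2 fold change of −2.71 (adjusted p = 0.647). Pf4 in NoTx was 3.14 ± 1.84 CPM after seizure and 9.62 ± 0.983 CPM after saline, a log2 fold change of −1.61 (adjusted p = 0.675). For 3 of 10 ligands, Ccl7, Pf4 and Ccl3, the NoTx seizure libraries lay below the saline libraries without overlap, as they did for 16.2% of all genes. For 1 of 10, Cxcl16, they lay above without overlap (58.1 to 97.4 CPM after seizure and 41.0 and 52.6 CPM after saline), as they did for 4.96% of all genes.

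In MLC the libraries of both treatments overlapped for every ligand. Pf4 had a log2 fold change of −0.10 (95% interval −1.09 to 0.88), Cxcl16 of −0.18 (−0.997 to 0.640), Ccl12 of 0.60 (−0.40 to 1.61) and Ccl8 of 0.45 (−1.11 to 2.02). In MG Ccl9 had −0.03 (−0.88 to 0.81). The difference between MLC and MG was tested for a change with treatment: 0 of 10 ligands and 0% of all genes were called, and 0 ligands had an unadjusted p under 0.05. The value furthest from 0 beside its error was that of Ccl9, at log2 1.15 (95% interval −0.02 to 2.33, adjusted p = 0.902).

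**Figure D4:**
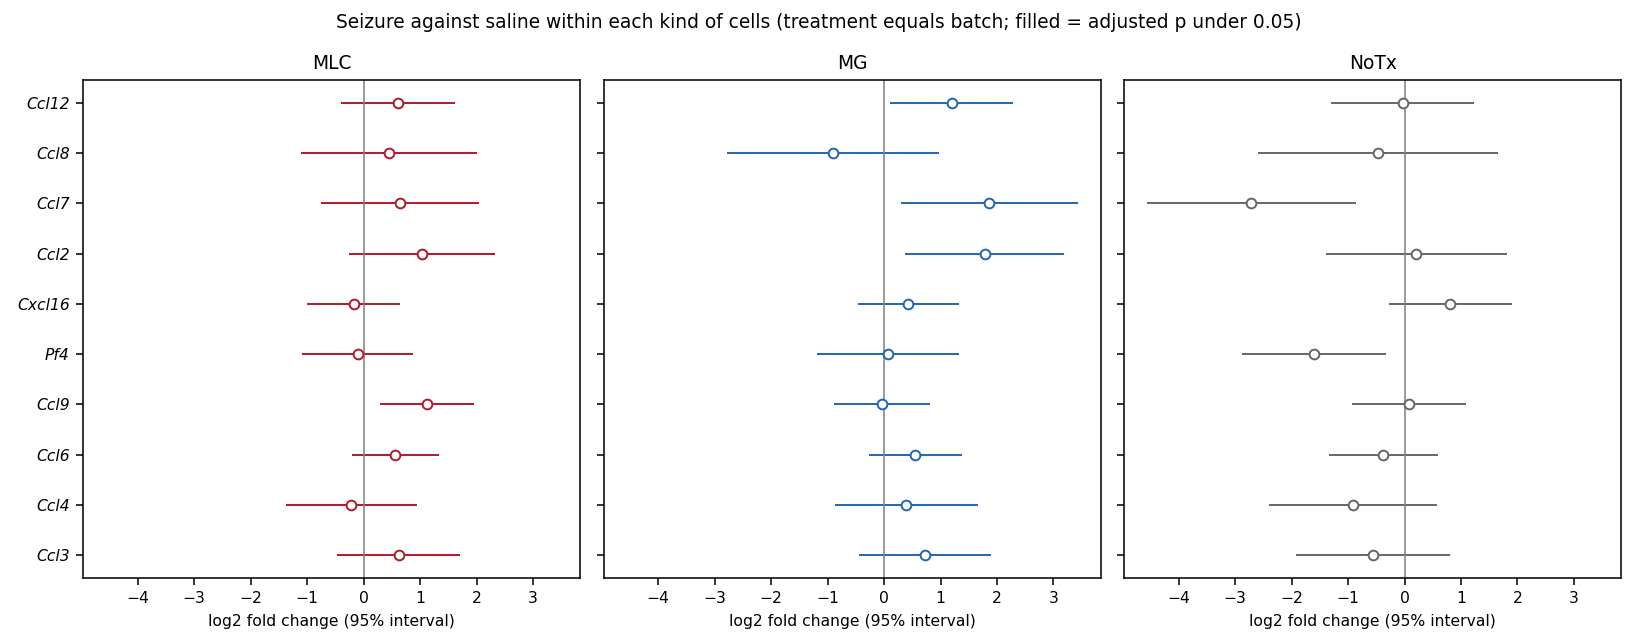
Log2 fold change of each ligand after seizure against saline in MLC, MG and NoTx, with 95% intervals of the edgeR fit and open points for values not called. No value is called, and the intervals of Ccl2, Ccl7 and Ccl12 in MG, of Ccl9 in MLC and of Ccl7 and Pf4 in NoTx leave out 0.

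Other chemokine ligands were read from a list of 26 genes, of which 15 were tested. Between MLC and MG 1 of 15 was called higher after seizure (Cxcl14) and 0 after saline. Between MLC and NoTx 4 of 15 were called higher after seizure and 0 after saline. These 4 were Cxcl14, Ccl5, which attracts T cells, and the interferon-induced Cxcr3 ligands Cxcl9 and Cxcl10. Cxcl14 averaged 5.48 CPM in MLC seizure libraries and no fold is given, since MG and NoTx had 3 counts or fewer. Cxcl9 averaged 202 ± 47.4 CPM in MLC, 77.3 ± 101 CPM in MG and 0.547 ± 0.230 CPM in NoTx after seizure (SD, n = 6, 4 and 3), a log2 fold change of MLC over NoTx of 8.53 (adjusted p = 0.00197). Cxcl10 had a log2 fold change of 4.97 (adjusted p = 0.0293) and Ccl5 of 3.30 (adjusted p = 0.0417). In the other 6 comparisons 0 of 15 were called.

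Of 23 chemokine receptors, 17 were tested. Ccr1, the receptor of Ccl3, Ccl6, Ccl7 and Ccl9, was called higher in MLC in all 4 comparisons with MG and NoTx. It averaged 534 ± 93.5 CPM in MLC, 81.2 ± 43.4 CPM in MG and 24.1 ± 17.0 CPM in NoTx after seizure, and 782 ± 106, 109 ± 82.8 and 25.0 ± 2.66 CPM in the same cells after saline. Between MLC and MG the log2 fold change was 2.72 after seizure (SE 0.46, adjusted p = 0.000513) and 2.85 after saline (SE 0.56, adjusted p = 0.00497). In MLC against MG, Ccr1 ran opposite to its ligands Ccl6 and Ccl9 and in the same direction as its ligand Ccl7, and Ccl3 was not called.

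Between MLC and MG, 2 of 17 receptors were called higher in each treatment, Ccr1 and Cxcr4, the receptor of Cxcl12. Ccr3 was called lower after seizure, at 0.0372 CPM in MLC and 5.37 CPM in MG. Cxcr4 averaged 7.01 CPM in MLC seizure and 3.95 CPM in MLC saline libraries with 2 counts in each MG group, so that no fold is given. Between MLC and NoTx, 2 were called higher after seizure (Ccr1 and Cxcr4) and Ccr1 after saline, and Ccr6 and Ccr7 were called lower after seizure. The NoTx averages of Ccr6 (4.85 CPM) and Ccr7 (2.69 CPM) came almost wholly from 1 library. In the remaining comparisons 0 of 17 were called. Ccr2, the receptor of Ccl2 and Ccl12, averaged 1.70 ± 3.31 CPM in MLC, 19.6 ± 24.5 CPM in MG and 16.4 ± 9.96 CPM in NoTx after seizure. After saline it averaged 2.36 ± 0.894 CPM in MLC, 11.8 ± 5.40 CPM in MG and 190 ± 166 CPM in NoTx, where the 2 libraries read 73.1 and 307 CPM. Ccr8, the receptor of Ccl8, had 0 counts in all 21 libraries, with the same upper limit of 0.00478 CPM, and Cxcr6, the receptor of Cxcl16, averaged under 1 CPM in each group.

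For the ligands called between MLC and MG in both treatments, the genes with the most similar profile were sought by the root mean square difference of centred log2 CPM over the 21 libraries, among the 5963 genes whose average log2 CPM was 4 or more. These values describe the profiles, and the libraries share groups, depth and batch. Closest to Ccl12 were AW112010 (0.421), Fgl2 (0.746) and Ifi204 (0.755), and closest to Ccl7 were Ifi47 (1.18), Tgtp2 (1.33) and Gbp8 (1.37). Closest to Ccl8 were Ms4a7 (1.43), Pla2g7 (1.60) and Cd36 (1.65), and closest to Pf4 were Cybb (0.986), Clec12a (1.06) and Pla2g7 (1.12). Pla2g7 stood in both lists. Closest to Cxcl16 were Cd72 (0.596), Slc38a6 (0.640) and Apobec1 (0.658). For Ccl9 they were Ecscr (0.725), Serpine2 (0.836) and Nav3 (0.860), and for Ccl6 they included Cst3 (0.410) and Cd9 (0.421). Among the 10 ligands themselves the most similar pairs were Ccl2 and Ccl12 (0.836) and Ccl12 and Cxcl16 (1.04), followed by Ccl3 with Ccl6 and Ccl3 with Ccl4 (1.15 each).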

How the data were processed

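RNA was measured by bulk RNA-seq of sorted brain cells, with a kit for small RNA amounts that amplifies by PCR, without named molecular identifiers. The authors deposited estimated counts per gene, of which 22.2% to 35.2% of the values above 0 in a library were more than 0.01 from a whole number, and these were rounded here. Per the submitters' processing notes, Trim Galore 0.6.7, cutadapt 3.4, STAR 2.7.10a, GRCm39, featureCounts (Subread 2.4.5) and DESeq2 1.36.0 were used. The tool that gave fractional counts and the strand setting are not given in the sources used here.

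All 21 libraries (6 groups) entered 1 edgeR 4.0.16 quasi-likelihood fit (R 4.3.3, TMM scaling, robust, filterByExpr by group). It gave 10 comparisons, each adjusted by Benjamini-Hochberg over 18867 genes with 0.05 as the limit. An SE is the absolute log2 fold change over the square root of F. CPM are TMM-scaled, and log2 CPM used a prior count of 2. The limits given for counts of 0 hold for counting error alone. The named genes are the 10 ligands, genes of the listed families that passed a test or whose level is listed, 3 genes of similar profile per ligand called in MLC against MG in both treatments, and label checks. Ligands and lists were chosen with earlier results of these data known. The main fit did not pair the samples by replicate number, and whether these numbers mark pairs is not settled. Results for some receptors and genes of similar profile are not reported here.

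Alternatives were DESeq2 1.42.0, limma-voom (limma 3.58.1), RLE scaling, no low-count filter, only the groups compared, replicate and library code blocks, libraries coded 11b left out or summed, libraries with few genes left out, thinning, each library left out, and a GC-content offset chosen after seeing the data (GC content known for 95.4% of tested genes). On simulated data for MLC against MG after seizure (17966 genes), edgeR found 7.46% of the genes changed 2-fold, 49.3% of those changed 4-fold and 80.3% of those changed 8-fold, with 7 false calls.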

Additional observations from a re-analysis of the deposited data

Results flagged for a closer look

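In groups of 4 to 10 libraries, the highest and lowest library of each ligand were tested against their group by Dixon's criterion, in 20 tests over the MLC seizure and MG seizure groups. Chance flags about 1 in 20 groups. The criterion was passed in 2 groups. Ccl2 stood at 882 CPM in MLC seizure replicate 5, 1 of the 3 libraries with few genes, and the nearest library of its group stood at 363 CPM. Pf4 stood at 1.67 CPM (17 counts) in MG seizure replicate 1, and the nearest library of its group stood at 0.345 CPM. No ligand differed between treatments in its MLC against MG effect by the test of that difference.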

How the results depend on the processing

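Of 31 calls of single ligands, 21 held in all 33 alternatives run for them, 10 were lost in at least 1, and 0 changed sign. The library code block gave values only for the 6 comparisons within a treatment, since the code is confounded with treatment. In MLC against NoTx after saline, 7 ligands were called, and 2 to 7 with each library left out in turn (3 without NoTx saline replicate 1 and 2 without replicate 2). In MG against NoTx after saline, 1 was called, and 2 in limma-voom (of 420 genes called). For the same comparison 0 were called in a fit of only the groups compared and 0 with the library code block. With the replicate block 0 were called (Pf4 log2 −4.22, adjusted p = 0.0502), and 0 to 1 with a library left out. In MG against NoTx after seizure, 0 were called, and 2 in DESeq2 (of 670 genes called), 1 with no low-count filter and 0 to 1 with a library left out. With the replicate block the other comparisons of MLC kept their counts of 7 and 8, and Ccl2 in MLC against NoTx after seizure was log2 2.43. Same-number libraries correlated above 0.1 in 3 of 7 pairs after saline and 1 of 10 after seizure. With the libraries coded 11b left out, 8 ligands were called in MLC against MG after seizure, and 9 with them summed. With RLE scaling the all-gene median in MLC against MG after seizure was log2 0.12, with 1022 genes called. The GC-content offset, chosen after seeing the data, moved that of seizure against saline to 0.43 in MG, 0.35 in MLC and 0.38 in NoTx. Ccl2 in MLC against MG after seizure was not called with the replicate block (log2 1.23, adjusted p = 0.293) and was called with RLE scaling (adjusted p = 0.0376). Over all genes, MLC against MG after seizure had 1109 calls in edgeR and 2568 in DESeq2, and after saline 299 in edgeR, 665 in DESeq2 and 1683 in limma-voom. The causes were not tested. The 2 NoTx saline libraries and the few counts of Ccl8 and Pf4 in MG limit the precision.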
